A study of Mus musculus with 6 samples.

Results

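The genes described here are 37 genes of the interferon response and of antigen processing, named in a list and not selected by a threshold. They fall into 9 genes of antigen processing, 19 targets of type I interferon and 9 genes induced mainly by type II interferon, and many of them answer to both kinds of interferon. Of the 37, 34 were measured among 16887 genes on the arrays. Psme2, Oas1a and Ifi44 were not analysed here.

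Liver RNA of 6 C57BL/6 mice, aged 7 weeks, was labelled mouse by mouse and hybridised to 2-colour arrays, each of which also carried pooled liver RNA of 6 mice of the same strain and age fed standard chow. All 6 mice ate the HFC diet, which the titles call a high fat diet, for 12 days. There were 2 mice on the diet with vehicle (HFC), 2 dosed from day 5 with lovastatin at 30 mg/kg and 2 dosed from day 5 with fenofibrate at 100 mg/kg. Lovastatin inhibits cholesterol synthesis and fenofibrate activates the nuclear receptor PPARα. No genetic change is named for any group, and no untreated mouse was hybridised singly, so the spread between chow mice is not part of any comparison. Mouse RNA was labelled with Cy5 for HFC and for lovastatin and with Cy3 for fenofibrate, so that for a single gene an effect of the dye and an effect of fenofibrate cannot be told apart. Lovastatin mice were grouped by their titles, although their treatment text names fenofibrate.

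Interferons are secreted proteins. Many cells release type I interferons on sensing viral or bacterial nucleic acids, whereas type II interferon comes mostly from T cells and natural killer cells. Many targets of type I interferon carry the interferon-stimulated response element (ISRE), and many targets of type II interferon carry the gamma-activated site (GAS). Both raise antigen processing, in which proteasomes with inducible subunits cut proteins into peptides, the TAP transporter moves the peptides into the endoplasmic reticulum, and MHC class I molecules present them. In liver, hepatocytes, Kupffer cells and endothelial cells all respond to interferon.

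Stretches upstream of 5 members are printed because 4 of these genes had the lowest dye-balanced ratios of the 34 and the fifth, Igtp, holds both motifs. Each is the 120 bases before an annotated transcript start, 5′ to 3′ on the gene's strand, from RefSeq in build GRCm38.p6, and capitals mark a match to ISRE (GAAANNGAAA) or GAS (TTCNNNGAA) on either strand. For Gbp3, which has 2 annotated starts, the upstream one is shown.
Gbp3 (chr3:142559924-142560043, plus strand): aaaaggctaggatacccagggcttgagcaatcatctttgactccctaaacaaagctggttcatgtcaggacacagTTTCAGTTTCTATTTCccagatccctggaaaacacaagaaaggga
Isg15 (chr4:156200819-156200938, minus strand): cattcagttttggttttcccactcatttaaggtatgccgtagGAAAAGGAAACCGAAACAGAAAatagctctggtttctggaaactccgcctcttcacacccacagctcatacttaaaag
Ifit1 (chr19:34640769-34640888, plus strand): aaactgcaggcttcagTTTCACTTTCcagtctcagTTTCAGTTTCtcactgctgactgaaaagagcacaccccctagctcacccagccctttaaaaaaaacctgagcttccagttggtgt
Psmb9 (chr17:34187331-34187450, minus strand): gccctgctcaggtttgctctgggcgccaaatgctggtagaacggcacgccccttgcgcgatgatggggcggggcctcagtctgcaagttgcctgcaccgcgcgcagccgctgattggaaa
Igtp (chr11:58199436-58199555, plus strand): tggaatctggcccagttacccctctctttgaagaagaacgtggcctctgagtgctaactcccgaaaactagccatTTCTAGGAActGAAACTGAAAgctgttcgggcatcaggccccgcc

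Isg15 holds 3 overlapping ISRE matches, Gbp3 holds 2 overlapping ones and Ifit1 holds 2 that lie apart. Igtp holds a GAS match followed by an ISRE match. Psmb9 holds neither motif in its window, which overlaps that of Tap1, transcribed the other way. In windows of 300 bases (250 before to 50 after the start), 37 windows of 31 of the listed genes were found, of which 40.5% held an ISRE and 24.3% a GAS, against 3.44% and 8.3% of all 32851 windows. By role, an ISRE stood in 47.1% of windows of type I targets, 45.5% of those of type II genes and 22.2% of those of antigen processing. A match is a description of the letters and not of binding, and genes with a match were not all low: Bst2, with 2 ISRE matches and 1 GAS match, lay above the pool on every array.

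Each value is a log ratio of mouse to pool, with base 2 taken by convention, so that a negative value is a lower signal in the HFC-fed mouse. This direction is likely and not stated, since the mouse is listed as the first channel on every array. The first spot of the array, an unnamed control, lay between -9.71 and -4.2 on the Cy5 arrays and at 4.83 and 4.95 on the Cy3 arrays. Sqle, squalene epoxidase of cholesterol synthesis, lay between -4.49 and -3.06 on all 6 arrays, and Acot1, an acyl-CoA thioesterase, between 1.48 and 4.05. The SD over all probes was 0.419 to 0.725 on 5 arrays and 1.09 on lovastatin replicate 1, the widest array. On HFC replicate 2, 50.3% of the probes lie in blocks whose values are displaced along the array, and these were left out. That removed 16 members wholly and 1 of 2 probes of Parp14 from this array. Where the text adds a value "put back", the block was rotated to the position that correlated best with the other arrays.

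The dye-balanced comparison takes all 6 mice on the diet and weights both dye orientations equally. The fenofibrate arrays thus weigh as much as the HFC and lovastatin arrays together, and any effect of fenofibrate enters these values beside that of the diet. In this comparison 28 of the 34 members lay below 0, with a median log2 ratio of -0.25. Over all features 48.9% lay below 0, with a median of 0.01. The lowest were Gbp3, an interferon-induced GTPase (-1.32, SE 0.132), Ifit1, which binds foreign RNA (-1.00, SE 0.157), Isg15, a ubiquitin-like modifier (-0.96, SE 0.137), and Psmb9, an inducible proteasome subunit (-0.80, SE 0.123). None of the 34 passed an adjusted p of 0.05 (limma, Benjamini-Hochberg over 19447 features), against 0.566% of all features. At an unadjusted p under 0.05, 14 members were lower and 0 higher, against 5.64% and 5.19% of all features. These 14 were 3 of 8 antigen processing genes, 6 of 17 type I targets and 5 of 9 type II genes. By role, 7 of 8 antigen processing genes lay below 0 (median -0.28), 14 of 17 type I targets (median -0.11) and 7 of 9 type II genes (median -0.45). Gbp3 came nearest to the threshold, with an adjusted p of 0.0526 from limma, and passed it with the displaced blocks put back (adjusted p = 0.0115). It also passed with those spots as deposited (adjusted p = 0.0271), where its HFC replicate 2 value comes from a displaced spot and is no support for Gbp3. Without either fenofibrate array its adjusted p was 0.564 and 0.774, and with the replicate number as a block 0.198.

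**Figure D1:**
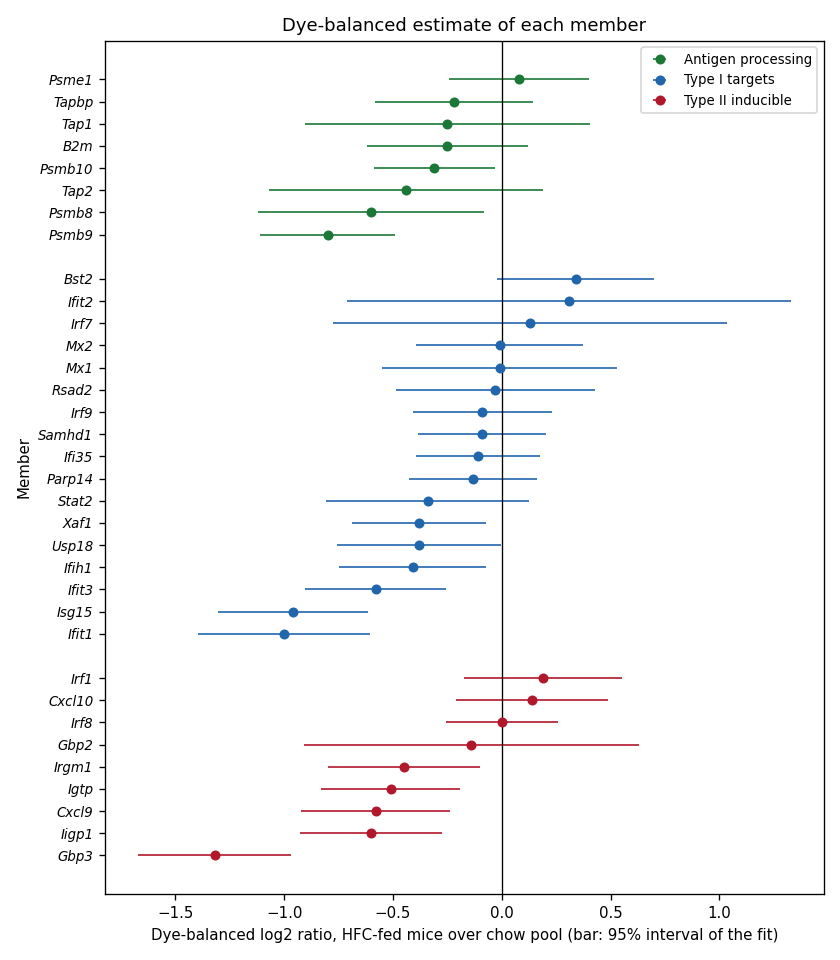
Dye-balanced log2 ratio (HFC-fed mice over the chow pool) of each of the 34 members, coloured by role, with the 95% interval of the limma fit as a bar. Gbp3 at -1.32, Ifit1 at -1.00, Isg15 at -0.96 and Psmb9 at -0.80 lie farthest to the left, and 6 members lie at 0.08 or above.

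Of the 34 members, 11 lay below 0 on every array used (7.11% of features did) and 1, Bst2, lay above 0 on every array used (7.32% of features). The 11 were Cxcl9, Gbp3, Ifit1, Ifit3, Iigp1, Irgm1, Isg15, Psmb10, Psmb8, Psmb9 and Usp18, of which Cxcl9, Gbp3, Ifit3, Iigp1, Psmb8 and Usp18 rest on 5 arrays. With the displaced blocks put back, 10 members lay below 0 on all 6 arrays, against 5.84% of features, and Ifit3 was the one lost. The median over the measured members was -0.15 and -0.17 on the HFC arrays, -0.22 and -0.16 on the lovastatin arrays and -0.42 and -0.47 on the fenofibrate arrays.

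**Figure D2:**
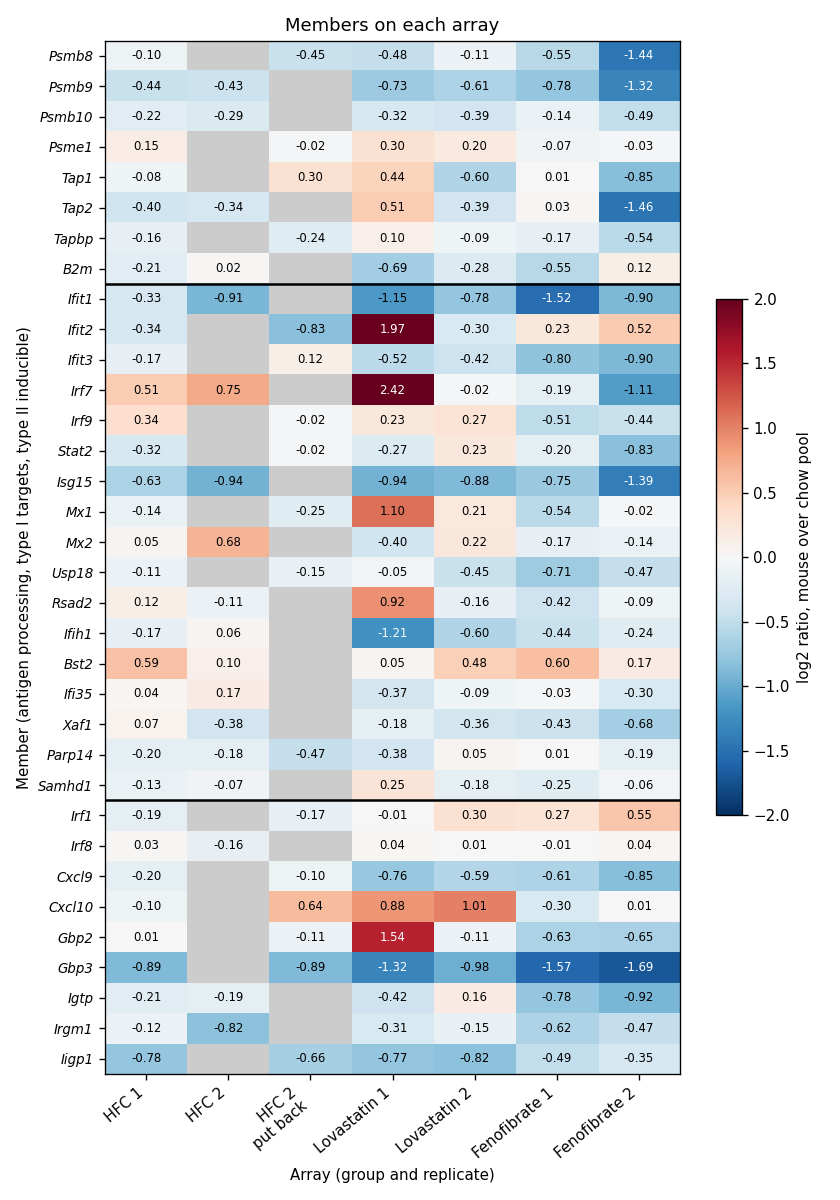
Log2 ratio, mouse over chow pool, of each member (lines, in the order antigen processing, type I targets, type II inducible) on each array (columns), with the number printed and colours limited to -2 and 2. Grey in the HFC 2 column marks a displaced spot that was left out, and the next column gives such values put back. Every value shown for Gbp3, Isg15, Ifit1 and Psmb9, picked by their low dye-balanced values from these arrays, is below 0.

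The ligands, receptors and signalling genes around the members gave no call. Of 18 interferon genes listed, 10 were measured, with a dye-balanced median of 0.06 and 0 past the threshold. Ifna1, a type I interferon, was at -0.25 and left out (put back -0.11) on the HFC arrays, -0.37 and -0.31 on the lovastatin arrays and -0.43 and -0.56 on the fenofibrate arrays. Its dye-balanced value was -0.40 (SE 0.121, limma adjusted p = 0.371), while Ifna11, measured on 4 arrays, ran from -0.23 to 2.02. These interferons are near-identical copies, and probes may not separate them. Of 7 receptor genes 6 were measured (median 0.01, 0 past the threshold), among them Ifngr2, a chain of the type II receptor, at 0.39 (SE 0.16). Of 12 signalling genes 11 were measured (median -0.06, 0 past the threshold).

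Socs3, an inhibitor of JAK-STAT signalling, had the smallest p of the signalling genes. It was at 0.54 and 1.19 on the HFC arrays, 1.56 and 0.60 on the lovastatin arrays and 0.65 and 1.58 on the fenofibrate arrays. All 6 values lay above 0, with a dye-balanced value of 1.04 (SE 0.22, limma adjusted p = 0.176). Irf5, a transcription factor of inflammatory genes, lay below 0 on all 6 arrays, from -1.56 to -0.23, and also missed the threshold (-0.60, limma adjusted p = 0.388). Of 19 sensors and adaptors of nucleic acid sensing, 15 were measured (median 0.07, 0 past the threshold). In this group Aim2, a sensor of DNA in the cytosol, was at -1.09 on HFC replicate 1 and -1.23 on lovastatin replicate 2, and at 1.33 and 1.77 on the fenofibrate arrays. The sign of Aim2 thus differed between the Cy5 and the Cy3 arrays that measured it.

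Among the type I targets, Ifit1, Isg15 and Ifit3 stood lowest. Isg15 was at -0.63 and -0.94 on the HFC arrays, -0.94 and -0.88 on the lovastatin arrays and -0.75 and -1.39 on the fenofibrate arrays. The groups overlapped, and all 6 mice lay below the pool. The limma adjusted p of the dye-balanced value was 0.0767, and 0.0541 with the blocks put back. Ifit1 was at -0.33 and -0.91 on the HFC arrays, -1.15 and -0.78 on the lovastatin arrays and -1.52 and -0.90 on the fenofibrate arrays. It too lay below 0 in every mouse with overlapping groups (limma adjusted p = 0.0936).

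Ifit3, a partner of Ifit1, was at -0.17 on HFC replicate 1 (replicate 2 left out, put back 0.12), -0.52 and -0.42 on the lovastatin arrays and -0.80 and -0.90 on the fenofibrate arrays. Both fenofibrate arrays, which are the Cy3 arrays, lay below the others used, as in 13.0% of features. The dye-balanced value was -0.58 (SE 0.121, limma adjusted p = 0.214). Ifit2, the neighbouring gene on chromosome 19, did not share this pattern. It was at -0.34 (put back -0.83) on the HFC arrays, 1.97 and -0.30 on the lovastatin arrays and 0.23 and 0.52 on the fenofibrate arrays.

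The other type I targets spread on both sides of 0. Usp18, a protease that removes Isg15 from proteins, lay between -0.71 and -0.05 on the 5 arrays used. Xaf1, a promoter of cell death, was at 0.07 and -0.38 on the HFC arrays, -0.18 and -0.36 on the lovastatin arrays and -0.43 and -0.68 on the fenofibrate arrays. Ifih1, the RNA sensor MDA5, was at -0.17 and 0.06, then -1.21 and -0.60, then -0.44 and -0.24 in the same order, so that its lowest values were those of the lovastatin mice. The dye-balanced values were -0.38 for Usp18, -0.38 for Xaf1 and -0.41 for Ifih1, and none passed the threshold.

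The transcription factors of the type I response gave no common sign. Irf7, which amplifies interferon production, was at 0.51 and 0.75 on the HFC arrays, 2.42 and -0.02 on the lovastatin arrays and -0.19 and -1.11 on the fenofibrate arrays. Irf9, a DNA-binding factor that acts with Stat2, was at 0.34 (put back -0.02), 0.23 and 0.27 on the Cy5 arrays and -0.51 and -0.44 on the fenofibrate arrays. Stat2 was at -0.32 (put back -0.02), -0.27, 0.23, -0.20 and -0.83 in the same order.

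The antiviral effectors Mx1, Mx2 and Rsad2 had dye-balanced values of -0.01, -0.01 and -0.03. Mx1 ran from -0.54 to 1.10, Mx2 from -0.40 to 0.68 and Rsad2 from -0.42 to 0.92. Bst2, tetherin, which holds budding viruses at the cell surface, was at 0.59 and 0.10 on the HFC arrays, 0.05 and 0.48 on the lovastatin arrays and 0.60 and 0.17 on the fenofibrate arrays. Its dye-balanced value was 0.34 (SE 0.143, limma adjusted p = 0.48). Ifi35 (-0.37 to 0.17), Samhd1, which degrades deoxynucleotides (-0.25 to 0.25), and Parp14, an ADP-ribosyltransferase (-0.38 to 0.05), stayed near 0. The probes of Parp14 disagreed on fenofibrate replicate 1, at -0.32 and 0.34.

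Among the type II genes, the interferon-induced GTPases stood low, with 1 exception. Gbp3 was at -0.89 on HFC replicate 1 (replicate 2 left out, put back -0.89), -1.32 and -0.98 on the lovastatin arrays and -1.57 and -1.69 on the fenofibrate arrays. Every value lay at -0.89 or lower. Both fenofibrate arrays, which are the Cy3 arrays, lay below the others used, as in 13.0% of features. Igtp was at -0.21 and -0.19 on the HFC arrays, -0.42 and 0.16 on the lovastatin arrays and -0.78 and -0.92 on the fenofibrate arrays. Irgm1 was at -0.12 and -0.82, then -0.31 and -0.15, then -0.62 and -0.47 in the same order. Gbp2 was the exception, at 0.01 (put back -0.11) on the HFC arrays, 1.54 and -0.11 on the lovastatin arrays and -0.63 and -0.65 on the fenofibrate arrays.

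Iigp1, another interferon-induced GTPase, had its highest values on the fenofibrate arrays. It was at -0.78 (put back -0.66) on the HFC arrays, -0.77 and -0.82 on the lovastatin arrays and -0.49 and -0.35 on the fenofibrate arrays. All lay below 0, with a dye-balanced value of -0.60 (SE 0.121, limma adjusted p = 0.203). The dye-balanced value was -0.51 (SE 0.127, limma adjusted p = 0.238) for Igtp and -0.45 for Irgm1.

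The chemokines Cxcl9 and Cxcl10 share a receptor on activated T cells but differed here. Cxcl9 was at -0.20 (put back -0.10) on the HFC arrays, -0.76 and -0.59 on the lovastatin arrays and -0.61 and -0.85 on the fenofibrate arrays, with a dye-balanced value of -0.58 (SE 0.127, limma adjusted p = 0.232). Cxcl10 was at -0.10 (put back 0.64) on the HFC arrays, 0.88 and 1.01 on the lovastatin arrays and -0.30 and 0.01 on the fenofibrate arrays. Irf1, the main transcription factor of the type II response, ran from -0.19 to 0.55, and Irf8, a factor of myeloid cells, from -0.16 to 0.04, the narrowest range of the 34 members.

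Within antigen processing, 2 of the 3 inducible catalytic subunits of the proteasome, Psmb9 and Psmb8, stood lowest. Psmb9 was at -0.44 and -0.43 on the HFC arrays, -0.73 and -0.61 on the lovastatin arrays and -0.78 and -1.32 on the fenofibrate arrays. Both fenofibrate arrays, which are the Cy3 arrays, lay below the others, as in 13.0% of features. The limma adjusted p of the dye-balanced value was 0.0901. Psmb8 was at -0.10 (put back -0.45) on the HFC arrays, -0.48 and -0.11 on the lovastatin arrays and -0.55 and -1.44 on the fenofibrate arrays, giving -0.60 (SE 0.193, limma adjusted p = 0.398). Psmb10 was closer to the pool, between -0.49 and -0.14 on all 6 arrays, at -0.31 (SE 0.11, limma adjusted p = 0.407). Psme1, a subunit of the proteasome activator, stayed between -0.07 and 0.30.

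Psmb9, Tap1, Psmb8 and Tap2 lie next to each other, in this order, on chromosome 17. The transporter subunits took values on both sides of 0, unlike the proteasome subunits beside them. Tap1 was at -0.08 (put back 0.30) on the HFC arrays, 0.44 and -0.60 on the lovastatin arrays and 0.01 and -0.85 on the fenofibrate arrays. Tap2 was at -0.40 and -0.34, then 0.51 and -0.39, then 0.03 and -1.46 in the same order. Fenofibrate replicate 2 was the lowest array for all 4 of these neighbours. Tapbp, which bridges the transporter and MHC class I, ran from -0.54 to 0.10, and B2m, the light chain of class I, from -0.69 to 0.12.

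The inducible subunits replace constitutive ones in the proteasome core, and 34 of 34 constitutive proteasome genes listed were measured. Their dye-balanced median was 0.02, with 15 of 34 below 0 and 0 past the threshold. At an unadjusted p under 0.05, 1 was lower (Psmc6, -0.39) and 1 higher (Psmd8, 0.31), against 5.64% and 5.19% of all features. The direct counterparts, chosen for display after their values were seen, had dye-balanced values of 0.17 for Psmb5, replaced by Psmb8, -0.36 for Psmb6, replaced by Psmb9, and 0.06 for Psmb7, replaced by Psmb10. Psmb8 and Psmb5 were farthest apart on the fenofibrate arrays, at -0.55 against 0.66 and at -1.44 against 0.06. On lovastatin replicate 2 they were at -0.11 and -0.18. The difference within a pair was not tested.

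**Figure D3:**
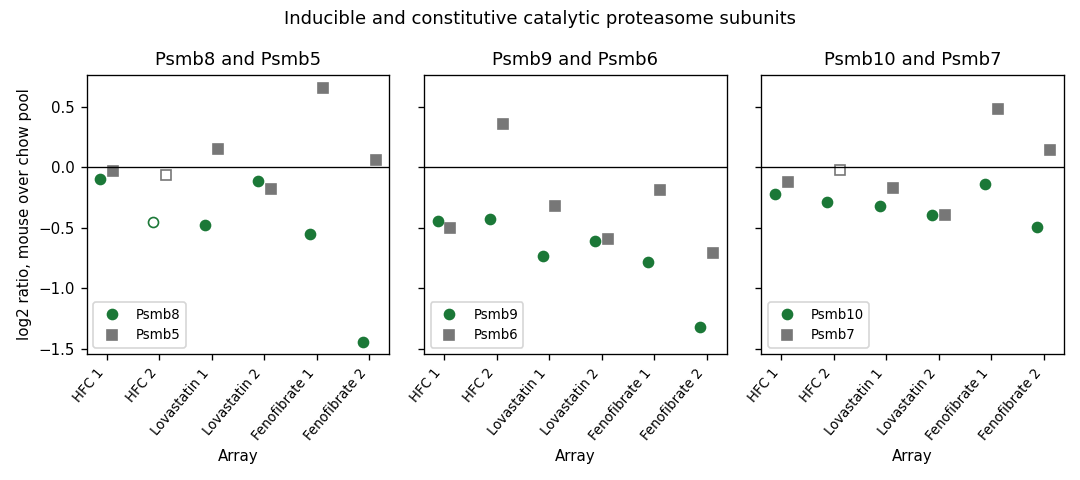
Log2 ratio, mouse over chow pool, of each inducible catalytic subunit (green circles) and the constitutive subunit it replaces (grey squares) on each array. Open symbols are displaced spots of HFC replicate 2 put back, and on fenofibrate replicate 2 Psmb8 is at -1.44 with Psmb5 at 0.06.

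Against the pool, the fenofibrate mice, whose arrays are the Cy3 arrays, had the lowest medians. Of the 34 members 30 lay below 0, with a median of -0.42, against 50.2% of all features and a median of 0.00. All 8 antigen processing genes lay below 0 (median -0.39), 15 of 17 type I targets (median -0.34) and 7 of 9 type II genes (median -0.55). For antigen processing the 2 fenofibrate mice differed, with medians of -0.16 (6 of 8 below 0) on replicate 1 and -0.70 on replicate 2. The median of that role was -0.18 and -0.32 (put back -0.26) on the HFC arrays and -0.11 and -0.34 on the lovastatin arrays. Gbp3 stood at -1.63 (SE 0.199, limma adjusted p = 0.167), Ifit1 at -1.21 (SE 0.257, limma adjusted p = 0.324), Isg15 at -1.07 (SE 0.223, limma adjusted p = 0.314) and Psmb9 at -1.05 (SE 0.201, limma adjusted p = 0.272). Psmb8 was at -1.00, Ifit3 and Igtp at -0.85 and Cxcl9 at -0.73. None of the members passed the threshold, against 0.0616% of features, and at an unadjusted p under 0.05, 10 were lower and 0 higher, against 3.78% and 3.85% of features.

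In HFC mice against the pool, 26 of 34 members lay below 0 (median -0.15), against 48.1% of features, and none passed, as for 0.0% of features. At an unadjusted p under 0.05, Gbp3 (-0.89), Iigp1 (-0.78) and Isg15 (-0.78) were lower and 0 were higher, against 2.44% and 2.29% of features. The values of Gbp3 and Iigp1 rest on 1 array. In lovastatin mice against the pool, 20 of 34 (58.8%) lay below 0 (median -0.11), close to the 50.8% of all features, and none passed, as for 0.0% of features. At an unadjusted p under 0.05, 7 were lower, among them Gbp3 (-1.15), Ifih1 (-0.90) and Iigp1 (-0.80), and 1, Cxcl10 (0.94), was higher, against 5.96% and 4.62% of features. These comparisons share the pool with the fenofibrate one.

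Between the drugs and the diet alone, no member passed the threshold. In fenofibrate against HFC, 0 members were lower and 0 higher at an unadjusted p under 0.05, against 1.39% and 1.5% of features, and 0.0% of features passed when adjusted. Among the members, Gbp3 differed by -0.74 (95% interval of 0.925 on either side), Psmb9 by -0.62 (0.716 on either side) and Igtp by -0.65 (0.736 on either side). In fenofibrate against lovastatin, Cxcl10 (-1.09, SE 0.278, limma adjusted p = 0.7) and Irf9 (-0.72, SE 0.255, limma adjusted p = 0.7) were lower at an unadjusted level of 0.05 and 0 were higher, against 1.99% and 3.56% of features, and 0.0% passed when adjusted. In lovastatin against HFC, Ifih1 (-0.85, SE 0.309) was lower and Cxcl10 (1.04, SE 0.341) higher at an unadjusted level of 0.05 (limma adjusted p = 0.972 for both), against 1.41% and 0.59% of features, and 0.0% passed when adjusted. The Cxcl10 value rests on HFC replicate 1 alone, and with the blocks put back HFC replicate 2 stood at 0.64. The median 95% interval over all features reached 1.02 on either side for fenofibrate against HFC, without adjustment for the number of features. For 50.3% of the probes the HFC group had at most 1 array. Differences smaller than this interval were mostly not detectable, and the adjusted threshold is stricter.

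In 12 of the 34 members both fenofibrate arrays lay below every HFC and lovastatin array used, against 13.0% of features, and in 1, Iigp1, both lay above, against 11.8%. The 12 were Gbp2, Gbp3, Ifit3, Igtp, Irf7, Irf9, Psmb8, Psmb9, Psme1, Tapbp, Usp18 and Xaf1. With the displaced blocks put back, 11 members lay below the other 4 arrays, against 10.9% of features, and Tapbp was the one lost; Iigp1 still lay above them, against 9.82%. The fenofibrate arrays are also the Cy3 arrays, so fenofibrate and dye cannot be told apart in this count.

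Further, 5 members were high on lovastatin replicate 1 and not on its replicate. These were Irf7 (2.42 against -0.02), Ifit2 (1.97 against -0.30), Gbp2 (1.54 against -0.11), Mx1 (1.10 against 0.21) and Rsad2 (0.92 against -0.16). They were singled out after their values were seen, and lovastatin replicate 1 is the array with the widest spread. The 4 lowest members lay below 0 on both lovastatin arrays, Gbp3 at -1.32 and -0.98, Ifit1 at -1.15 and -0.78, Isg15 at -0.94 and -0.88 and Psmb9 at -0.73 and -0.61. They were picked by dye-balanced values that include these arrays, so their low values here are no separate support.

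Other targets of both interferons outside the 37 lay mostly below 0, where 48.9% of all features did and 5.64% were lower and 5.19% higher at an unadjusted p under 0.05. Of 43 other type I targets 38 were measured, with 31 below 0 in the dye-balanced comparison (median -0.10), 7 lower and 0 higher at an unadjusted p under 0.05. The smallest p-values were those of Oas1c, of the family that makes the activator of RNase L (-0.60, SE 0.131), and Nmi, a partner of STAT proteins (-0.61, SE 0.121). Of 28 other type II targets 19 were measured, with 13 below 0 (median -0.13), 6 lower and 0 higher. Serping1, the inhibitor of complement C1, was at -0.53 and -0.92 on the HFC arrays, -0.12 and -0.29 on the lovastatin arrays and -0.76 and -1.09 on the fenofibrate arrays (-0.69, SE 0.122, limma adjusted p = 0.117). None of these genes passed the threshold.

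In fenofibrate mice against the pool, Ifitm3, which blocks the entry of viruses, had the smallest p among the other type I targets. It was at 0.26 (put back 0.03) on the HFC arrays, -0.06 and -0.07 on the lovastatin arrays and -1.00 and -1.06 on the fenofibrate arrays. Its value against the pool in fenofibrate mice was -1.03 (SE 0.18, limma adjusted p = 0.303). Ly6e, an interferon-induced surface protein, followed at -0.79 (SE 0.193, limma adjusted p = 0.405). Both genes were lower on the fenofibrate arrays, which are the Cy3 arrays, than on every other array used, as were 13.0% of features.

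Of 26 genes of MHC class I and peptide loading, 19 were measured, with 16 below 0 (median -0.35), 6 lower and 0 higher at an unadjusted p under 0.05, against 5.64% and 5.19% of all features, and 0 past the threshold. H2-K1, a classical class I heavy chain, lay between -0.66 and -0.03 on all 6 arrays (-0.40, SE 0.125), and class I genes are near-identical copies that probes may not separate. Cd1d1, which presents lipids to natural killer T cells, was at -1.15, -0.97, -1.14 and -0.99 on the Cy5 arrays and 0.18 and 0.31 on the fenofibrate arrays. Its dye-balanced value of -0.41 therefore averages 2 unlike sets of arrays. Of 13 MHC class II genes 11 were measured, with a median of -0.05 and 0 lower or higher.

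**Figure D4:**
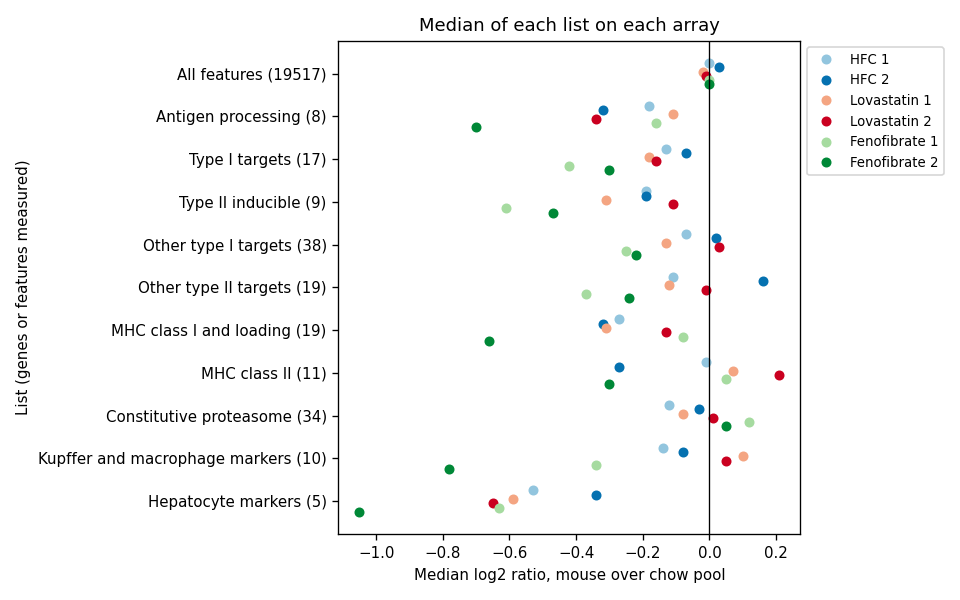
Median log2 ratio, mouse over chow pool, of each gene list on each array (points), with the number of genes or features measured in parentheses; HFC 2 uses its spots outside the displaced blocks. For antigen processing, fenofibrate replicate 2 stands lowest at -0.70, and for type I and type II genes both fenofibrate arrays stand lowest.

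Markers of liver cell types were set beside the members. All 5 hepatocyte markers had dye-balanced values below 0 (median -0.72), against 48.9% of all features. At an unadjusted p under 0.05, 4 were lower, against 5.64% of features. On single arrays their median ran from -1.05 on fenofibrate replicate 2 to -0.34 on HFC replicate 2. Of 10 Kupffer cell and macrophage markers measured, 9 lay below 0 in fenofibrate mice against the pool (median -0.53), against 50.2% of features. Of these, 4 were lower at an unadjusted p under 0.05, against 3.78% of features. The median of this list was -0.14 and -0.08 (6 markers, put back -0.16) on the HFC arrays. It was 0.10 and 0.05 on the lovastatin arrays and -0.34 and -0.78 on the fenofibrate arrays. This list and the members both had their lowest medians on the fenofibrate arrays, which are also the Cy3 arrays. The part of these cells in the members' values was not tested. The 6 stellate cell markers had a median of -0.28 in fenofibrate mice against the pool. On single arrays their median was 0.15 and 0.58 for HFC, 0.25 and 0.24 for lovastatin and -0.11 and -0.49 for fenofibrate. The value of 0.58 on HFC replicate 2 rests on 4 of the 6 markers and was 0.08 with the displaced blocks put back. All 6 lay lower in fenofibrate than in HFC mice (median -0.53, and -0.45 put back), against 52.1% of features. They also all lay lower than in lovastatin mice (median -0.39), against 50.3% of features. The part of these cells was not tested either. In fenofibrate mice against the pool, natural killer cell and B cell markers each had a median of -0.19 and T cell markers one of -0.10. Those of monocytes and cholangiocytes were each at -0.07, of dendritic cells at -0.04, of endothelial cells at 0.05 and of neutrophils at 0.07. Natural killer cell markers had a median of -0.26 in lovastatin mice, at -0.47 on replicate 1, the widest array, and -0.10 on replicate 2. In whole liver RNA, fewer cells of a type and less RNA per cell cannot be told apart. The files hold ratios and no levels, so the abundance of any marker or member was not assessed.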

How the data were processed

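The deposited table holds log2 ratios, 1 for each spot of each array; the log2 base is a convention and the direction is likely, neither being stated. Not given in the sources used here are scanner software, background correction and normalization, and no intensities were used, so dim probes were not filtered. Per the labels, 0.5 µg of RNA was amplified linearly during labelling. The design text names 24 mice in 4 arms, and mice beyond those on the 6 arrays and in the pool were not analysed here. Replicates are separate mice per the labels.

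Of 22575 spots, 726 without a value and 561 repeated unnamed controls were left out, leaving 21288 probes. By the platform annotation 18658 probes have 1 symbol, 30 have several and 3887 spots have none; 18445 probes matched the RefSeq gene table by Entrez number, which updated 0 symbols. A gene's probes were averaged, giving 19517 features. In 4 of 8 blocks of 27 spot positions, HFC replicate 2 correlated with the other arrays at -0.0337 to 0.0274 as deposited and at 0.2936 to 0.3084 after rotation (next best rotation 0.0443 at most). These spots were set to missing, with the deposited and the rotated values as alternatives.

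The fit used limma 3.58.1 (with statmod 1.5.0, R 4.3.3), all 3 groups sharing the spread (3 residual degrees of freedom where no value is missing), and adjusted by Benjamini-Hochberg over all features. A group is set against the pool by testing its mean ratio against 0. The dye-balanced contrast gives equal weight to the Cy5 arrays (HFC and lovastatin) and the Cy3 arrays (fenofibrate). The median 95% interval was 0.412 on either side for this contrast, 0.796, 0.647 and 0.643 for HFC, lovastatin and fenofibrate against the pool. The number of arrays limits this precision. The fit was tested on simulated data. Tables and figures used Python 3.11.15, pandas 2.3.3, numpy 2.4.6 and matplotlib 3.10.9.

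The members, gene lists and tests were chosen with earlier results of these data known. All members could be named with their values; statistics are given for members past the threshold or with the smallest 3 p-values of a role in the dye-balanced comparison or in fenofibrate against the pool (for further genes, the smallest 2). Bst2 and members with an unadjusted p under 0.05 between groups were added after their values were seen. Replicate numbers were taken as names only, since deviations of same-numbered arrays correlated at -0.0241 to 0.0311.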

Additional observations from a re-analysis of the deposited data

How the results depend on the processing

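The count of members past the threshold was 0 in all 7 comparisons, and it moved in 5 of them under other settings. In the dye-balanced comparison it was 1 with displaced spots as deposited and 1 with the blocks put back (Gbp3 both times), 3 with quantile normalization (Gbp3, Isg15 and Psmb9), 4 with the noisiest 10% of features removed (these and Ifit1) and 1 with limma array weights (Gbp3), a setting added after seeing the data. Leaving out each array gave 0 to 5 members there, 0 to 5 in lovastatin against the pool, 0 to 1 in lovastatin against HFC and 0 to 3 in fenofibrate against lovastatin. Each highest count came without lovastatin replicate 2, where the lone lovastatin array, the widest, is assumed to vary like the other groups; the latter 3 comparisons then called 4016 of 19020, 1401 of 19012 and 2235 of 18998 features, so that the members' counts are below the share over all features. Without lovastatin replicate 1 the dye-balanced count was 1 (Gbp3). In fenofibrate against the pool it was 1 (Gbp3) with noisy features removed and 1 with array weights. With the replicate number as a block (replicate block) it was 0 in every comparison. Features past the threshold in the dye-balanced comparison numbered 110, against 67 as deposited, 191 put back, 196 with quantile normalization, 346 without noisy features, 230 with array weights and 0 with the replicate block; they numbered 5 and 25 without HFC replicates 1 and 2, 228 and 966 without lovastatin replicates 1 and 2, and 0 without either fenofibrate array. For fenofibrate against the pool they numbered 12, against 32 put back, 99 without noisy features, 111 with array weights, 26 without either lovastatin array, and 0 with single probes, a robust prior, the replicate block, those arrays alone, or any 1 fenofibrate or HFC array left out. Gbp3 has no dye-balanced value without HFC replicate 1, and the dye-balanced comparison needs all groups, so it was not run on compared arrays alone. No member with statistics in the dye-balanced comparison or in fenofibrate against the pool changed sign under these settings. Role medians of small size did: type II genes in fenofibrate against HFC stood at 0.18 without HFC replicate 1 (-0.07 before), in lovastatin against the pool they moved from -0.13 to 0.0029 with quantile normalization, and in lovastatin against HFC the type I median moved from -0.09 to 0.03 without HFC replicate 1, the type II median from 0.09 to -0.005 without HFC replicate 2 and the antigen processing median from -0.05 to 0.04 without lovastatin replicate 2 and 0.025 with the replicate block.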
